A study of Mus musculus with 2 samples.

Results

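The miR-26 family of the mouse comes from 3 microRNA genes, Mir26a-1, Mir26a-2 and Mir26b, each inside a gene for a small phosphatase of the Ctdsp group. They were found by their Ensembl identifiers among 2202 microRNA genes counted in adrenal gland tissue, and all 3 were in the table. The adrenal gland is the paired endocrine organ with a steroid-producing cortex and a catecholamine-producing medulla. The series holds 2 microRNA-seq libraries in 1 group, biological replicates 1 and 2, from wild-type C57BL/6J mice obtained from The Jackson Laboratory. No treatment is given, the age is labelled unknown, and the labels disagree on whether the sex was recorded as female or not collected. Each library has its own tissue sample, but both carry the same donor identifier, so whether 2 animals were used is not stated. The spread between the libraries may therefore be technical. In whole tissue, a difference in the number of cells of a type and a difference in RNA per cell cannot be told apart.

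A microRNA gene is transcribed as part of a longer RNA, from which a hairpin is cut and then trimmed to short mature products from its 5′ arm (5p) and 3′ arm (3p). The seed, bases 2 to 8 of a mature microRNA, pairs with target messenger RNAs and lowers their output. miR-26 is known from differentiated tissues as a restraint on growth. Its known targets include Ezh2, the methyltransferase of a repressive chromatin complex. The Ctdsp hosts encode phosphatases that act on the tail of RNA polymerase II and help to keep neuronal genes silent outside neurons, and Ctdsp2 is itself a known miR-26 target. Neither the hosts nor the targets were measured here.

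The mature sequences are shown first, since they decide which reads can be assigned to which gene. They were matched by symbol in RefSeq (build GRCm38.p6), where all 3 genes were found with 5 different mature products. Each is written 5′ to 3′ with the seed in capitals.
miR-26a-5p (Mir26a-1 and Mir26a-2): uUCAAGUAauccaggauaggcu
miR-26b-5p (Mir26b): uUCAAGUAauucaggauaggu
miR-26a-1-3p (Mir26a-1): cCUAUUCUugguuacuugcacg
miR-26a-2-3p (Mir26a-2): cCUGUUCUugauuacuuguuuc
miR-26b-3p (Mir26b): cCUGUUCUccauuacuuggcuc

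All 3 genes carried the same 5p seed, which no other mature microRNA among the 1738 entries for mature products held. Mir26a-1 and Mir26a-2 made an identical 5p product of 22 bases. Against it, miR-26b-5p had the substitutions C11U and C21U, counted from 1 at the 5′ end with the base of miR-26a first, and it was 1 base shorter, at 21. Both substitutions lay outside the seed. The 3p arms grouped differently from the 5p arms. miR-26a-2-3p and miR-26b-3p shared a seed and differed by 4 substitutions (U9C, G10C, U19G and U20C, with the base of miR-26a-2-3p first). By contrast miR-26a-1-3p differed from miR-26a-2-3p by 6, of which A4G changed the seed. The seed of miR-26a-2-3p and miR-26b-3p also occurred in Mir6932 and Mir7039, which had 4 and 1 counts in replicate 1 and 0 in replicate 2. In a search of 141767 GENCODE M21 transcripts on both strands, miR-26a-5p was found in its 2 hairpins and in no other gene. The other 4 products were each found in a single gene.

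The hairpins show how far the copies of miR-26a can be told apart. Capitals mark, in Mir26a-1 and Mir26a-2, the longest run that both hold, and in Mir26b the longest run found in both of the others.
Mir26a-1: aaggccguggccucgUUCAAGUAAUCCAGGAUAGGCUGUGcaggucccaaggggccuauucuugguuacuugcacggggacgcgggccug
Mir26a-2: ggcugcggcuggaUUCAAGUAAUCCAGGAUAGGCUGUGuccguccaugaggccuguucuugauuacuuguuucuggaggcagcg
Mir26b: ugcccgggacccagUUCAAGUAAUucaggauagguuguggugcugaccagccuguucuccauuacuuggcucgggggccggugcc

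The run shared by the 2 miR-26a hairpins was 25 bases long. It began exactly at the first base of the 5p product and ran 3 bases past its last. A read of 18 to 25 bases that starts at the annotated 5′ end of miR-26a-5p is thus the same at both loci. The tables list reads with several alignments in a row of their own, which is read here as their being in no gene's count. The handling of such reads is not given in the sources used here. An exactly matching read could be placed at 1 locus if it began at least 1 base upstream, if it started at the annotated end and reached 26 bases or more, or if it came from the 3p arm or the other parts of the hairpin. On that reading, the counts of Mir26a-1 and Mir26a-2 leave out reads equal to the annotated 5p product. How the aligner treated mismatched reads is not stated. Mir26b shared 10 bases in a row with both, and its 5p product was found in a single gene in the transcript search above. The genome outside those transcripts was not searched for any of the products. The deposited counts are per hairpin, so the arms behind them cannot be told apart.

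**Figure D1:**
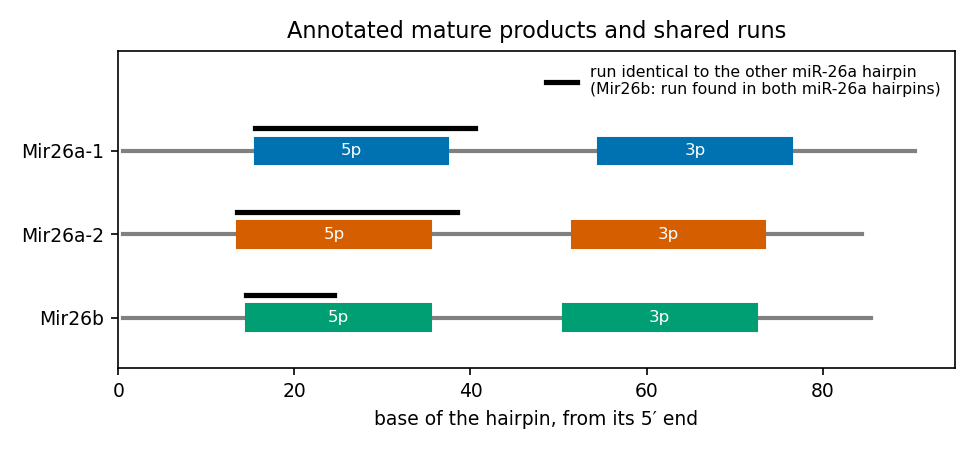
Map of the 3 hairpins in bases from the 5′ end, with the 5p and 3p products as coloured boxes and the shared runs as black bars. The 25-base run covers the whole 5p product of Mir26a-1 and Mir26a-2, while the run of Mir26b covers 10 bases of it.

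The genes lie on different chromosomes (mm10, all on the plus strand). Mir26b lies at chr1:74394310-74394394 in intron 4 of Ctdsp1, in the coding transcript Ctdsp1-201. Mir26a-1 lies at chr9:119031796-119031885 in intron 5 of Ctdspl (transcript Ctdspl-201). Mir26a-2 lies at chr10:126995530-126995613 in intron 5 of Ctdsp2 (transcript Ctdsp2-202). The introns differed in length, at 564 bases in Ctdsp1, 1946 in Ctdsp2 and 3283 in Ctdspl. Their exon neighbours did not differ in length: in all 3 hosts the exon before the hairpin was 57 bases long and the exon after it 93 bases. Ctdsp1 spans 5777 bases, Ctdsp2 21259 and Ctdspl 117546, and the hairpin started 2.80, 16.8 and 105 kb from the start of the host.

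Mir26a-2 differed from the others in its annotation. A short coding transcript, Ctdsp2-201, and a retained-intron transcript, Ctdsp2-203, start at position 126995613, the last base of the hairpin, so the hairpin overlaps an exon by 1 base in both. In Ctdsp2-202 the hairpin ended 241 bases before the next exon. The corresponding distance was 245 bases for Mir26b and 1650 for Mir26a-1. One other microRNA gene lay within 10 kb of a member, Mir546 in Ctdsp2 at chr10:126998440-126998560, with 9 counts in replicate 1 and 4 in replicate 2. Too few counts for a test were therefore seen at the other microRNA gene of that host.

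**Figure D2:**
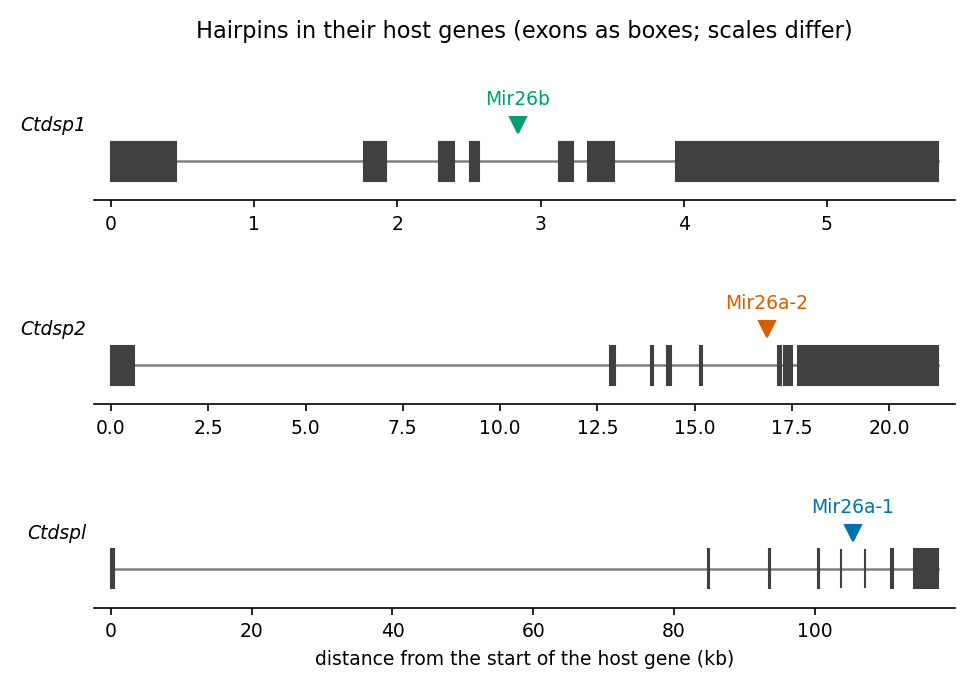
Exons (boxes) of the longest coding transcript of each host, in kb from the start of the host gene, with the hairpin marked by a triangle. Each hairpin sits between an exon of 57 bases and one of 93 bases, and the 3 scales differ because the hosts span 5777, 21259 and 117546 bases.

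Replicate 1 held 9137907 counts on the strand of a microRNA gene and replicate 2 held 6570375. A single count is 0.109 CPM (counts per 1000000 counts of the library) in replicate 1 and 0.152 CPM in replicate 2. Another 6721333 and 5210526 reads (35.9% and 36.0% of all reads) stand in the row of reads that aligned to several places. Markers of other cell types are given as sums over each list in replicate 1 and replicate 2, and the sums were not tested. Over all genes tested below, the median absolute log2 ratio between the libraries was 0.29. Sums were 144 and 295 CPM for 3 erythroid genes and 1319 and 1176 CPM for 4 leukocyte genes. They were 18908 and 15027 CPM for 5 fibroblast and smooth muscle genes, and 128 and 71.5 CPM for the liver gene Mir122. Of the erythroid genes, Mir144 (193 and 163 counts) was not called in that test. The 4 neuroendocrine genes summed to 54062 and 51805 CPM, the endothelial Mir126a had 61677 and 54325 CPM, and 5 kidney genes summed to 4958 and 6461 CPM. Striated muscle genes summed to 1.09 and 1.67 CPM, with 4 of 6 at 0. Some sums hide genes that went different ways in CPM. Mir30a made up most of the kidney sum, at 4847 and 6343 CPM. Mir204 was also higher in replicate 2, but Mir192 (340 and 215 counts) was higher in replicate 1. Mir194-2 (299 and 202 counts) was not called in the test described below, and Mir194-1 (3 and 2 counts) was too low to test. Of the leukocyte genes, Mir150 was higher in replicate 2 and Mir142 and Mir223 in replicate 1. Mir155 was nearly level, at 308 and 304 CPM. Of the fibroblast and smooth muscle genes, Mir145a was higher in replicate 2 and Mir143 and Mir214 in replicate 1. Mir199a-2 (74 and 61 counts) was not called, and Mir199a-1 (2 and 1 counts) was too low to test. The part of these markers in the differences below was not tested.

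Mir26b made up nearly all of the counts of the family. It had 224180 counts (24533 CPM) in replicate 1 and 118455 counts (18029 CPM) in replicate 2, or 21281 ± 4599 CPM (SD, n = 2). This placed it 12th and 16th among the 2202 genes, with 2.45% and 1.80% of all counts. Mir26a-2 had 106 counts (11.6 CPM) in replicate 1 and 1655 counts (252 CPM) in replicate 2, at ranks 279 and 134. Its mean of 132 CPM has an SD of 170 CPM, larger than the mean itself, so the mean describes neither library. Mir26a-1 had 25 counts (2.74 CPM) in replicate 1 and 43 counts (6.54 CPM) in replicate 2, at ranks 361 and 320, or 4.64 ± 2.69 CPM (SD, n = 2).

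The order Mir26b, Mir26a-2, Mir26a-1 was the same in both libraries. Per base of hairpin the values were 289, 0.138 and 0.0304 CPM in replicate 1 and 212, 2.999 and 0.0727 in replicate 2. The hairpins are 85, 84 and 90 bases long, so dividing by length could not change the order. The levels of the 3 genes did not overlap between libraries, yet the mean of Mir26a-2 lay less than 1 of its own SDs (170 CPM) above that of Mir26a-1. The mean of Mir26b lay more than 1 SD above both. This is an order of assignable reads and not of mature products, since reads of miR-26a-5p that lie within the run shared by its copies are, on the reading above, not in it. How many of the reads with several alignments came from miR-26a is not known from these files. They outnumbered the counts of Mir26b by 30.0 times in replicate 1 and 44.0 times in replicate 2.

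**Figure D3:**
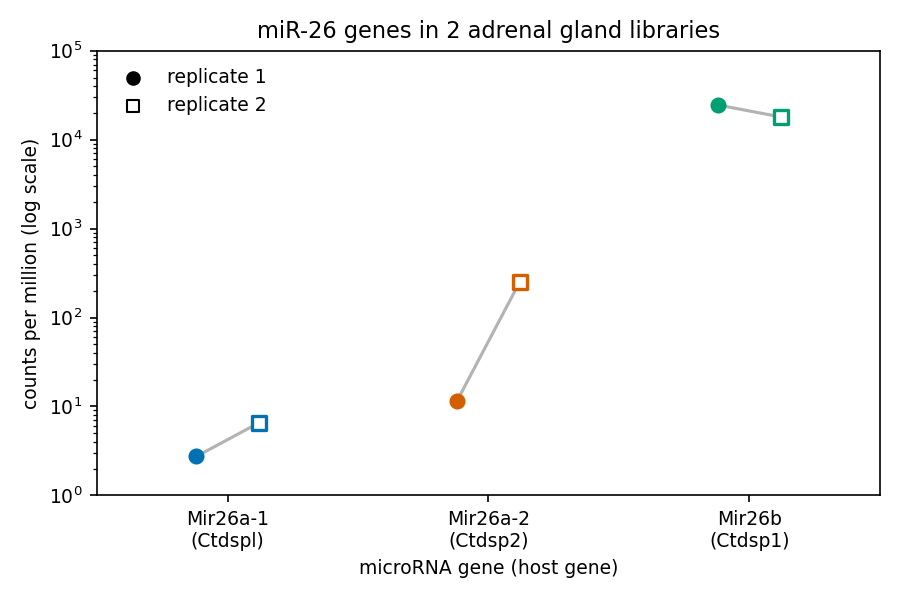
Level in CPM on a log axis for the 3 genes, with a filled circle for replicate 1 and an open square for replicate 2, joined by a line. Mir26b fell between 18029 and 24533 CPM in both libraries, while Mir26a-2 ran from 11.6 to 252 CPM.

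As a family, the 3 genes held 224311 counts, or 2.45% of the total (exact 95% binomial interval 2.44 to 2.46), in replicate 1. In replicate 2 they held 120153 counts, or 1.83% (interval 1.82 to 1.84). The miR-26a genes gave 131 of the family counts in replicate 1, a share of 0.0584% (interval 0.0488 to 0.0693). In replicate 2 they gave 1698, a share of 1.41% (interval 1.35 to 1.48). The miR-26a share was thus higher in replicate 2, and the intervals do not overlap. They cover the counting error of reads within a library only, and the libraries carry no stated molecular identifiers. No member had a count on the strand opposite to it in either library, and the counts on either strand were the same as those on the strand of the gene.

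Because the series has 1 group, replicate 2 was compared with replicate 1, which says nothing about a condition. The counts of each gene were set against the library sizes scaled by TMM in a two-sided exact binomial test, adjusted after Benjamini and Hochberg over the 426 genes with at least 20 counts in all. This test knows counting error only, and there is no replicate check on a difference between 2 libraries. It called 239 genes, which is 56.1% of those tested, at an adjusted p under 0.05. All 3 members were called, and given that background a call by itself says little about them. The median absolute log2 ratio over the tested genes was 0.29, and called differences of more than 2-fold made up 10.8% and of more than 4-fold 1.88% of the tested genes.

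Mir26a-2, the copy in Ctdsp2, had a log2 ratio of 4.33 for replicate 2 over replicate 1 (95% counting interval 4.05 to 4.63), a 20.1-fold difference. This was the largest absolute log2 ratio of the 426 tested genes. Called differences in that direction made up 5.63% of the tested genes past 2-fold and 0.939% past 4-fold. The next in size was that of Mir3069, at 2.94 on 7 and 44 counts, followed by Mir185 at -2.75 on 7853 and 899 counts. Mir3069 and Mir185 were named after their values were seen. Mir26a-1, the copy in Ctdspl, was higher in the same library, with a log2 ratio of 1.14 (interval 0.41 to 1.93) and a 2.21-fold difference on 25 and 43 counts (exact binomial test, adjusted p = 0.00302). In absolute size it stood 42nd among the tested genes.

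Mir26b went the other way. Its log2 ratio was -0.55 (interval -0.56 to -0.54), so it was 1.46-fold higher in replicate 1, at place 129 in absolute size. For Mir26b and Mir26a-2 the exact p was below the smallest number that double precision holds. In the direction of replicate 2, 25.8% of all tested genes were called, and 30.3% in the direction of replicate 1. TMM scaling lowered every log2 ratio by 0.10 against scaling by library totals, and each member kept its direction and its call under both.

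**Figure D4:**
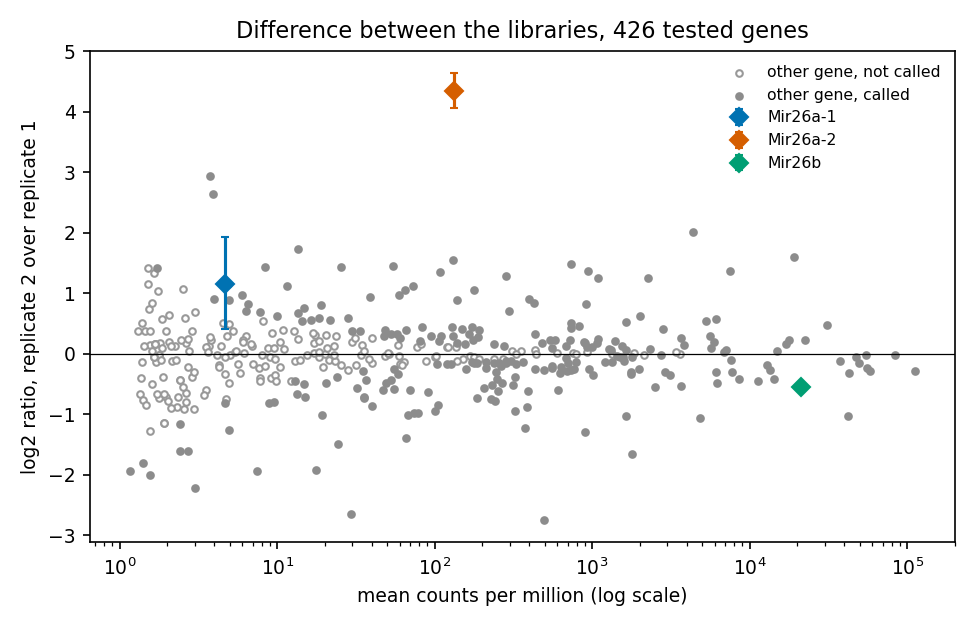
Log2 ratio of replicate 2 over replicate 1 against mean CPM (log axis) for the 426 tested genes, with called genes filled and the members as coloured diamonds with 95% counting intervals. Mir26a-2 lies at 4.33, above the next gene at 2.94, while Mir26b lies at -0.55 among the abundant genes.

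The copies of miR-26a were then set against each other within each library, where library size plays no part. Mir26a-2 had 4.24 counts for each count of Mir26a-1 in replicate 1 (exact 95% interval 2.72 to 6.84). In replicate 2 it had 38.5 (interval 28.4 to 53.4). These intervals do not overlap. For 2 other duplicated microRNAs in paralogous hosts the intervals of this ratio overlapped. Mir103-2 in Pank2 had 4.70 counts for each count of Mir103-1 in Pank3 in replicate 1 (interval 3.15 to 7.22) and 4.39 in replicate 2 (interval 2.90 to 6.88). Mir128-1 in R3hdm1 had 39.6 counts for each of Mir128-2 in Arpp21 in replicate 1 (interval 21.3 to 83.2) and 26.4 in replicate 2 (interval 12.6 to 66.7), on 10 and 7 counts of Mir128-2. Overlap of these intervals does not show that the ratios were equal.

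A ratio between copies that moves from library to library was not particular to miR-26a. All 24 pairs of tested genes with the same mature sequence were compared in the same way, a set added after values were seen. Beside the miR-26a pair, 8 of the other 23 pairs had intervals that do not overlap and 15 had intervals that do. The miR-26a ratio differed by 9.08-fold between the libraries, at place 1 of the 24. Mir365-2 had 167 and 78 counts against 7 and 15 of Mir365-1, so its ratio went from 23.9 to 5.20, a 4.59-fold difference. Mir24-2 had 2788 and 1534 counts against 528 and 1043 of Mir24-1, and its ratio went from 5.28 to 1.47. Mir181a-1 had 434 and 324 counts against 119 and 249 of Mir181a-2, and its ratio went from 3.65 to 1.30. The ratio of Mir7-1 to Mir7-2 was 2.06 and 3.51, on 2482 and 1809 counts against 1207 and 516. In each pair the copy with more counts in replicate 1 was put first. The direction in which a ratio moved depends on that order, so only the size of the difference is compared. The remaining 4 pairs without overlap differed by 1.11-fold to 1.44-fold. On the reading above, the counts of these pairs, like those of miR-26a, are of reads that could be placed at 1 locus.

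Duplication of a mature product is common in the table. By exact match of the mature sequences in the RefSeq table used, which is not complete, 348 of the 2202 genes were found to hold a product that also lies in another gene. Of these, 276 had no count in either library and 53 passed the filter for the test. Among the 53, 10 were higher in replicate 2, 19 were higher in replicate 1 and 24 were not called, while scaling by library totals turned the split to 16 against 9, with 28 not called. The share called was 54.7%, close to the 56.1% over all tested genes and the 56.3% of the 373 tested genes without a copy found. By library totals the split over all tested genes turned as well, to 150 against 93. With TMM the median log2 ratio of the 53 was 0.0011, against -0.025 over all 426 tested genes. By library totals these medians were 0.10 and 0.078. The median absolute log2 ratio of the 53 with TMM was 0.19, against 0.30 for those 373 genes. The most abundant of the 53 were Mirlet7f-2 at 7561 and 7573 CPM, Mirlet7c-2 at 1765 and 1897 CPM and Mir92-1 at 953 and 1213 CPM. Mir26a-2 was the only gene of the 53 called at more than 4-fold.

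Genes close to each member in level were taken next. Around Mir26b stood Mir22 (31062 ± 8741 CPM) and Mir99a (22390 ± 3590 CPM) above, and Mir21a (19171 ± 14292 CPM) and Mir127 (17704 ± 2768 CPM) below (SD, n = 2). The mean of Mir26b was within 1 SD of Mir99a, Mir21a and Mir127 by its own SD of 4599 CPM. All 4 of these neighbours were higher in replicate 2, by log2 ratios of 0.48, 0.23, 1.59 and 0.22, while Mir26b was higher in replicate 1. Over all tested genes 25.8% were called higher in replicate 2 and 30.3% higher in replicate 1. The direction of Mir26b was also that of more abundant genes such as Mirlet7g, Mir23b and Mirlet7d. By distance over log2(CPM + 1) in both libraries, a measure over 2 points, Mir99a (0.56), Mir127 (0.65) and Mir10b (0.67) were nearest to Mir26b.

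Mir26a-2 had no close match. The nearest genes by that distance were Mir665 at 2.01, Mir193b at 2.25 and Mir1247 at 2.26. Each of these was also higher in replicate 2, by log2 ratios of 1.45, 1.11 and 1.05. That direction follows from the choice, since the distance uses both libraries. The neighbours of Mir26a-2 in mean level, Mir543, Mir669o, Mir664 and Snord43, had log2 ratios from 0.12 to 1.55. Mir26a-1 did have close matches, with Mir1291 at a distance of 0.071, Mir6944 at 0.20 and Mir3572 at 0.26. Mir1291 had 26 and 45 counts, nearly the same as the 25 and 43 of Mir26a-1, which is what the distance selects for. The neighbours of Mir26a-1 in mean level, Mir450-1, Mir6897, Mir7213 and Mir1b, had log2 ratios from -0.81 to 0.50.

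A list of microRNAs named for introns of paralogous host genes was set beside the members. Position in an intron was checked for the members only, and for the others only a gene around them on the same strand was looked up. The Pank genes encode pantothenate kinases, the first enzyme of coenzyme A synthesis, and carry Mir107, Mir103-1 and Mir103-2. Beside the 3 members the list has 12 genes in the table, 8 of them tested, and Mir208a and Mir208b of the myosin genes had no count. With TMM scaling 0 of the 8 were called higher in replicate 2, 4 were called higher in replicate 1 and 4 were not called. Over all tested genes 56.1% were called, 25.8% higher in replicate 2 and 30.3% higher in replicate 1. By library totals 1 of the 8, Mir33, was called higher in replicate 2 and 4 were again called higher in replicate 1. The median log2 ratio of the 8 was -0.33 with TMM and -0.23 by library totals. Mir107 had 1003 and 902 CPM (log2 ratio -0.26), and Mir153 in Ptprn2, a neuroendocrine granule protein gene, had 461 and 56 counts (log2 ratio -2.66). Mir33, in the sterol regulator gene Srebf2, had 130 and 127 counts and was not called with TMM (log2 ratio 0.34). Mir190b had no annotated host on its strand.

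**Figure D5:**
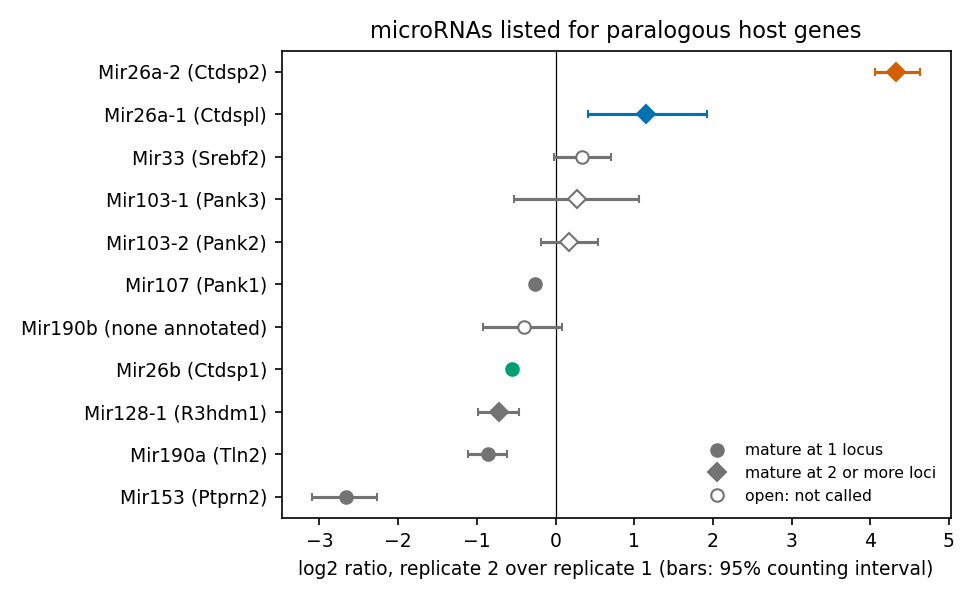
Log2 ratio of replicate 2 over replicate 1 with 95% counting intervals for the 11 tested genes of the list, filled where called and shown as diamonds where the mature product lies at more than 1 locus. Mir26a-2 (4.33) and Mir26a-1 (1.14) are the genes called to the right of 0 with the TMM scaling plotted, and Mir33 is called there by library totals.

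miR-26 is also known as part of a set of microRNAs repressed by the transcription factor Myc, which drives growth. Of 27 other genes of that set, all tested, 10 were higher in replicate 2, 12 were higher in replicate 1 and 5 were not called, while by library totals the split turned to 13 against 8, with 6 not called. All tested genes turned likewise, from 110 against 129 with TMM to 150 against 93 by library totals, and 56.1% of them were called with TMM. Called differences of more than 2-fold were found in 5 of the 27 and of more than 4-fold in 0, against 10.8% and 1.88% of all tested genes. Their median log2 ratio was -0.054 with TMM and 0.049 by library totals, against -0.025 and 0.078 over all tested genes. The median absolute log2 ratio of the 27 with TMM was 0.25, against 0.29 over all tested genes. With the members included, all of them called, 83.3% of the 30 genes were called. The share called was thus above that of all tested genes, while the median size of the difference was not. The test knows counting error only, so a gene with many counts can be called at a small ratio. The part of the number of counts in this share was not tested. The leading genes were Mirlet7g at 119893 and 105944 CPM, Mir23b at 58044 and 52546 CPM and Mirlet7d at 46149 and 39823 CPM, each higher in replicate 1, by log2 ratios of -0.28, -0.25 and -0.32. Mir26b was the seventh most abundant of the 30 genes with the members included, Mir26a-2 was at place 27 and Mir26a-1 at place 30. The whole set summed to 385898 CPM in replicate 1 and 349103 CPM in replicate 2. The lists were drawn from general knowledge, and nothing about them is tested beyond these counts.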

How the data were processed

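The tables as deposited hold raw counts of reads for each microRNA gene, 1 table a library. Their accompanying text names the mm10 assembly and the M21 release of GENCODE, and the protocols in the labels link a document on adapter trimming. Aligner and counting tool: not given in the sources used here. The 3 count columns have no header and were read as either strand, strand of the gene and opposite strand. The first 4 rows name no gene (unmapped, several alignments, outside genes, ambiguous), hold 51.2% and 54.6% of the 18743064 and 14457994 reads and were left out of library sizes.

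All 2202 identifiers matched GENCODE M21. CPM divides the strand-of-gene count by the sum over genes, times 1000000. Log2 ratios add 0.5 counts to each library and use TMM sizes (edgeR 4.0.16, R 4.3.3). The exact binomial test and Clopper-Pearson intervals used scipy 1.17.1. The test was also run on counts simulated with counting error only, as it assumes, which is no check on other spread between libraries. Alternatives were library totals, DESeq2 1.42.0 size factors, the either-strand column, 5 added counts, no filter and each replicate left out. Named genes are the members, the 2 genes above and 2 below each in mean CPM, the 3 nearest over log2(CPM + 1), microRNA genes within 10 kb, the leading 3 of each list with any past 4-fold, and copies of duplicated products in paralogous hosts. The members and lists were chosen with earlier results of these data known.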

Additional observations from a re-analysis of the deposited data

How the results depend on the processing

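The members kept their direction and their call with library totals, DESeq2 size factors, the either-strand column and no filter on low counts. The 5 added counts enter the ratio and not the test. Over scaling by library totals, DESeq2 size factors, the either-strand column and 5 added counts, they ran from 4.28 to 4.43 for Mir26a-2, from 1.05 to 1.25 for Mir26a-1 and from -0.56 to -0.44 for Mir26b. Mir26a-2 had the largest absolute log2 ratio under these 4, and the second largest of 818 genes with no filter on low counts. Genes called numbered 243 by totals, 235 by DESeq2 size factors, 217 of 400 in the either-strand column and 233 of 818 with no filter. By totals 150 were higher in replicate 2 and 93 in replicate 1, against 110 and 129 with TMM. Per 1000000 of all reads of the library, Mir26b had 10077 and the family 10139, in place of 21281 and 21417 CPM, because that total includes reads outside the genes. Without replicate 1 or replicate 2 a level is that of the other library, which for Mir26a-2 is 252 or 11.6 CPM and for Mir26a-1 is 6.54 or 2.74 CPM. No paired analysis was possible because there is 1 group. A ratio between libraries cannot be had with a replicate left out. The 25 and 43 counts of Mir26a-1 limit its ratio to an interval of 0.41 to 1.93.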
